A study of Mus musculus with 6 samples.

Results

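The S100 genes encode small calcium-binding proteins, and 9 of them that are used outside leukocytes were followed here: S100a1, S100a3, S100a4, S100a6, S100a10, S100a11, S100a13, S100a16 and S100b. They were taken by symbol, and all 9 were found among the 23940 genes of the deposited table. The cells were sorted as CD45-negative from 6 YUMM1.7 melanomas in C57BL/6 mice, 3 pre-treatment tumours that had received no MAPK inhibitor and 3 residual tumours on a BRAF inhibitor (on-BRAFi). YUMM1.7 is 1 mouse melanoma line with mutant, active Braf and without Cdkn2a, so all 6 tumours share these lesions. The sort on CD45, the product of Ptprc, removes leukocytes and leaves tumour cells mixed with fibroblasts, vessel cells and other cells of the host. The labels number separate tumours but do not say that each came from its own mouse, so p-values reflect only how these tumours varied. The sources used here do not name the inhibitor, its dose or how long it was given.

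S100 proteins are vertebrate EF-hand proteins that mostly work as dimers. On binding calcium, most of them expose a surface that grips target proteins such as annexins, myosin and p53. S100a10 is the exception, since it holds the active shape without calcium and pairs with annexin A2 at the plasma membrane. Several S100 proteins are also released from cells and bind the receptor RAGE, the product of Ager. S100b is a stain for melanocytes, Schwann cells and melanoma in human pathology, and S100a4 is known both as metastasin and as a marker of fibroblasts.

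Values were FPKM, fragments scaled to transcript length and library size, so that levels can be compared between genes. The total FPKM ranged from 414834 to 921297 per library, 11074 to 11740 genes reached 1 FPKM, and genes of short RNAs held 23.0% to 40.5% of the total. The table gives no read counts, so the depth of each library is unknown. Ptprc lay between 0.118 and 2.18 FPKM in all 6 libraries, and S100a8 and S100a9, the S100 genes of neutrophils, were listed at 0 in all 6. Of 10 melanocyte markers, Tyrp1, Dct and Mlana were listed at 0 in all 6 libraries, and Tyr, which encodes tyrosinase, lay between 3.02 and 5.99 FPKM. Genes with a mean of at least 1 FPKM over the 6 libraries were tested with limma on log2(FPKM + 0.1), and a gene is said to have risen or fallen where its Benjamini-Hochberg adjusted p over all 12075 tested genes was under 0.05. All 9 S100 genes entered the test, but S100a3 and S100b did so narrowly, with means of 1.04 and 1.08 FPKM.

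The 9 genes spanned more than 3 orders of magnitude in level, and their order changed on the inhibitor. Before treatment S100a4 had the highest mean, 3735 ± 1064 FPKM (SD, n = 3), followed by S100a6, S100a10, S100a11, S100a1, S100a13, S100a16, S100a3 and S100b. The ranges of S100a4 and S100a6 touched, as did those of S100a6 and S100a10, of S100a1 and S100a13, and of S100a3 and S100b, whereas all other neighbours in that order were apart. S100a4 then ranked 16 among the 12075 tested genes by mean FPKM. On the inhibitor S100a6 had the highest mean, 1011 ± 186 FPKM, and S100a4 came after S100a6, S100a10 and S100a11. The ranges of S100a10, S100a11 and S100a4 overlapped there, as did those of S100a13 and S100a16 and those of S100b and S100a3. S100a6 ranked 32 by mean FPKM on the inhibitor and S100a4 ranked 198.

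**Figure D1:**
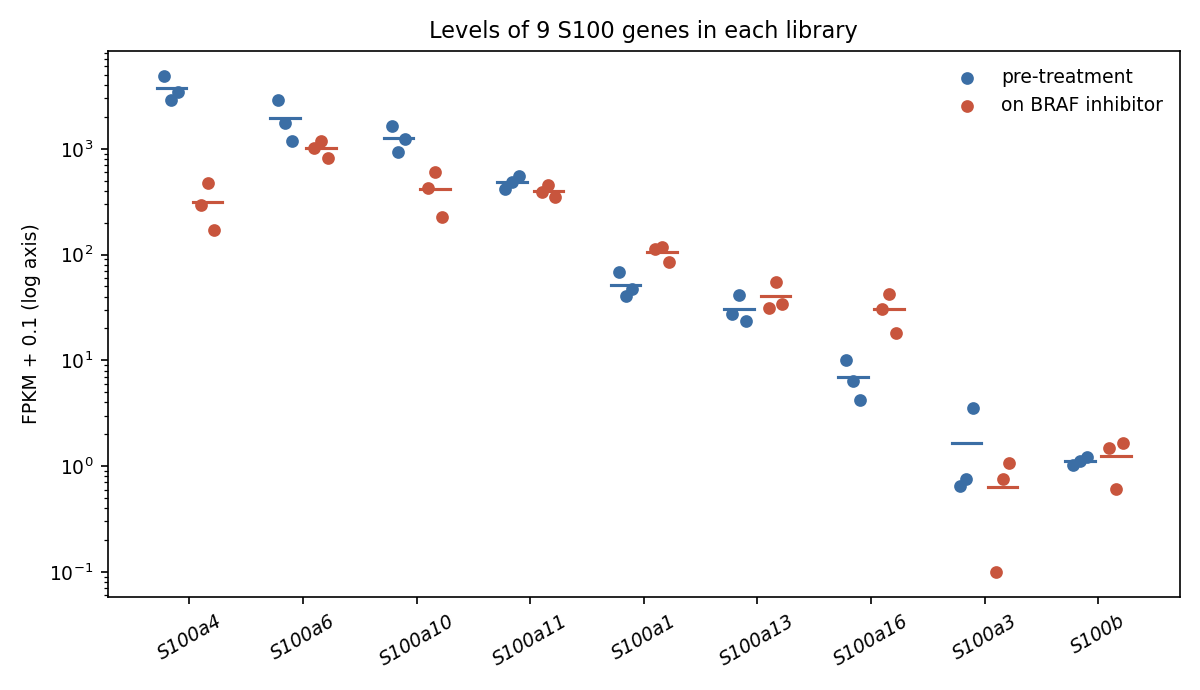
FPKM plus 0.1 on a log axis for each of 9 S100 genes, with a point for each library and a line at the mean of each group (3 pre-treatment and 3 on-BRAFi libraries). The groups are apart for S100a4, S100a10, S100a1 and S100a16 and overlap for the other 5 genes.

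The start sites of 4 of these genes are shown because their RNA lay at high levels or moved furthest, and because S100a4 and S100a6 sit close together in the genome. Each line gives the 250 bases before a RefSeq start site, 5′ to 3′, on the + strand of GRCm38.p6; the deposited table was made on mm9, so these positions are not the authors'. Capitals mark matches to any of 5 motifs searched on both strands. The TATA box was searched as TATAAA, the site of AP-1 as TGANTCA, the E-box as CACGTG, the site of TEAD factors as GGAATG and the site of ETS factors as CCGGAAG, and none of the matches shown overlap.
S100a4, chr3:90603520-90603769: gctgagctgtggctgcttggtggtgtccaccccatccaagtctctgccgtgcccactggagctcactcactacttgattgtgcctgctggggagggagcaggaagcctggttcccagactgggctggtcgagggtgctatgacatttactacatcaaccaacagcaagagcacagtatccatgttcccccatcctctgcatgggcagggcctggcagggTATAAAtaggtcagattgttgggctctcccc
S100a6, chr3:90612644-90612893: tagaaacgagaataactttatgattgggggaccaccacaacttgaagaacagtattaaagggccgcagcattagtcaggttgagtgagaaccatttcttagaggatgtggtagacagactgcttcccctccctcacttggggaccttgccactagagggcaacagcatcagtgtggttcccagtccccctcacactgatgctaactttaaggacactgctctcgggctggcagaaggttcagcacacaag
S100a16, upstream start, chr3:90537004-90537253: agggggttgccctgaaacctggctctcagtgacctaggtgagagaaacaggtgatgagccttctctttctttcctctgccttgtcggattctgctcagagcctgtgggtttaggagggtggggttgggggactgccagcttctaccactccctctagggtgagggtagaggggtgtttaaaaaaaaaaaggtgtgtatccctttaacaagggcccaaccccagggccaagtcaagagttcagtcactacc
S100a16, downstream start, chr3:90540896-90541145: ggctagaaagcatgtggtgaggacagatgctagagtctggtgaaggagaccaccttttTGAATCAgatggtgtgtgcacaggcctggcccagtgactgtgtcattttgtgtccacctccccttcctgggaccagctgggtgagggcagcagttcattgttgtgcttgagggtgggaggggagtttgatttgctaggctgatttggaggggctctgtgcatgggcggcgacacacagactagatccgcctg
S100a11, chr3:93520246-93520495: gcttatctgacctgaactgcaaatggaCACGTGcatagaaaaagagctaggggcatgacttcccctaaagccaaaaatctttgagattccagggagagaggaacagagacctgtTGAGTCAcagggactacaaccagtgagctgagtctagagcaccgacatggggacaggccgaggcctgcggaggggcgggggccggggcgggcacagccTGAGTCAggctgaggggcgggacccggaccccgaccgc
The S100a4 window holds TATAAA, its first base 31 bases before the start site, a motif found in 12.4% of all 32851 RefSeq windows of this length. The downstream S100a16 window holds 1 AP-1 match and the S100a11 window holds 2 AP-1 matches and 1 E-box, which occur in 6.75% and 6.02% of all windows. The S100a6 window and the upstream S100a16 window hold none of these letters. RefSeq gave entries for 8 of the 9 genes, all but S100a10, with 12 windows in all, of which 5 held a match to any of the motifs. The TEAD and ETS letters occur in 12.6% and 6.91% of all windows. The share of all windows that hold any of the 5 motifs was not counted, so the members' share has no background beside it.

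S100a4, a protein that binds non-muscle myosin and is linked to cell motility, fell further than any other member that passed the test. It stood at 4919.9, 2862 and 3424 FPKM in pre-treatment replicates 1 to 3 and at 296, 474 and 169.8 FPKM in on-BRAFi replicates 1 to 3. Every treated library was far below every untreated library. S100a4 fell 12.6-fold, or -3.66 ± 0.40 (SE) in log2 fold change (95% interval -4.61 to -2.71; limma, adjusted p = 0.00232). The call held without any 1 of the 6 libraries (limma, adjusted p from 0.00926 to 0.0260), as it did for 923 of the 12075 tested genes, or 7.64%.

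The fall of S100a4 ran beside a rise of matrix genes among the fibroblast markers. Of 12 fibroblast markers tested, 7 rose and none fell, where 8.76% of all tested genes rose, with a median log2 fold change of 2.72, and their summed level went from between 1270.2 and 1801 FPKM to between 9234 and 9952 FPKM. None of the 12 was listed at 0 in all libraries, and the most abundant, Col3a1, Col1a2 and Dcn, rose from 531 ± 103, 321 ± 47.4 and 219 ± 126 FPKM to 4761 ± 128, 1436 ± 103 and 1499.7 ± 266 FPKM (limma, adjusted p = 0.000419, 0.00115 and 0.00556). Pdgfra, Pdgfrb, Fap and Pdpn, which encode surface proteins of fibroblasts, did not pass, at log2 fold changes of 0.22, 0.48, 0.01 and -0.41, and neither did Thy1, at 2.50. Endothelial markers rose in 7 of 11 cases, from a sum of 44.8 to 56.5 FPKM to a sum of 95.7 to 146 FPKM, among them Pecam1 and Cdh5, whereas Eng did not pass. Fbln1 among the fibroblast markers that rose and Tek among the endothelial ones reached the filter only through the on-BRAFi libraries. Their means before treatment were 0.145 and 0.543 FPKM. Fewer cells of a type and less RNA per cell cannot be told apart in these bulk libraries, and the part of a changed cell mix in any S100 difference given here was not tested.

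S100a10, the partner of annexin A2 and a receptor for plasminogen, also fell. It stood at 1643, 922 and 1228 FPKM before treatment and at 428, 597 and 225 FPKM on the inhibitor. The groups did not overlap, and on-BRAFi replicate 3 was lowest, as it was for S100a4. The change was 3.19-fold, or -1.67 ± 0.39 in log2 fold change (95% interval -2.61 to -0.74; limma, adjusted p = 0.0279). The call was fragile: it held only without on-BRAFi replicate 2 among the 6 fits that left out 1 library (limma, adjusted p from 0.0390 to 0.104), and quantile normalization ended it, with a log2 fold change of -0.93 (limma, adjusted p = 0.122).

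S100a6, or calcyclin, which binds the ubiquitin-ligase adaptor Cacybp, was abundant in both groups. Its levels were 2896, 1746 and 1191 FPKM before treatment and 1012, 1197 and 825 FPKM on the inhibitor. The groups overlapped by a narrow margin, since pre-treatment replicate 3 lay just below on-BRAFi replicate 2. The log2 fold change was -0.86 ± 0.35 (95% interval -1.68 to -0.04) and did not pass (limma, adjusted p = 0.130), and quantile normalization turned its sign.

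S100a11, which links to annexins and takes part in membrane repair, lay closest together over the 6 libraries among the 4 abundant members. It stood at 414, 486 and 550.2 FPKM before treatment and at 388, 453 and 351 FPKM on the inhibitor, in overlapping ranges. Its log2 fold change was -0.28 ± 0.19 (95% interval -0.73 to 0.17; limma, adjusted p = 0.342), and its sign turned when every library was set to an equal total. RefSeq also lists a pseudogene, S100a11-ps, and the sources used here do not say how reads were divided between such copies.

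S100a16, a widely expressed member of which little is known beyond calcium binding, rose the most among the 9. Its levels were 9.90, 6.34 and 4.10 FPKM before treatment and 30.8, 42.1 and 17.8 FPKM on the inhibitor. All 3 treated libraries were above all 3 untreated ones, and on-BRAFi replicate 2 was highest. S100a16 rose 4.42-fold, or 2.14 ± 0.42 in log2 fold change (95% interval 1.15 to 3.13; limma, adjusted p = 0.0147). The call was lost when pre-treatment replicate 2 or 3 was left out and when on-BRAFi replicate 1 or 2 was (highest adjusted p 0.0759, limma).

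S100a1, best known from heart and skeletal muscle, where it binds calcium channels and pumps, rose as well. It stood at 68.1, 40.1 and 47.2 FPKM before treatment and at 112, 118 and 85.1 FPKM on the inhibitor, with no overlap. The rise was 2.06-fold, or 1.04 ± 0.25 in log2 fold change (95% interval 0.46 to 1.62; limma, adjusted p = 0.0280). The same 4 omissions ended the call (highest adjusted p 0.106, limma). Skeletal muscle markers were near 0 throughout: their sum over 10 genes was at most 5.12 FPKM before treatment and 6.78 FPKM on the inhibitor, and neither Acta1 nor Tnnt3, the 2 tested, passed in limma (0 at an unadjusted p under 0.05). By the full span of each gene in RefSeq, S100a1 and S100a13 overlap by 98 bases, and in unstranded libraries reads there cannot be told apart. The annotation behind the deposited values is not stated, so whether the 2 genes overlapped in it is unknown.

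S100a13, which takes part in the release of FGF1 and interleukin 1 alpha, did not pass. Its levels were 27.1, 41.5 and 23.6 FPKM before treatment and 31.2, 54.9 and 34.01 FPKM on the inhibitor. The ranges overlapped, and the log2 fold change was 0.38 ± 0.30 (95% interval -0.34 to 1.096; limma, adjusted p = 0.421). With short RNAs removed and every library set to an equal total it passed, at 0.97 (limma, adjusted p = 0.0433), in a setting in which the median of all genes was 0.57.

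S100b and S100a3 lay near the filter of 1 FPKM. S100b stood at 0.914, 1.02 and 1.11 FPKM before treatment and at 1.38, 0.507 and 1.55 FPKM on the inhibitor. Its treated libraries lay on both sides of the untreated ones, and the log2 fold change was 0.04 (95% interval -1.31 to 1.39; limma, adjusted p = 0.974). Sox10, a transcription factor shared by melanocytes and Schwann cells, was at most 0.114 FPKM in any library. S100a3, a protein of the hair cuticle, was at 0.554, 0.648 and 3.43 FPKM before treatment, and on the inhibitor it was listed at 0 in replicate 1 and stood at 0.655 and 0.966 FPKM in replicates 2 and 3. It entered the test through pre-treatment replicate 3, and its log2 fold change was -1.47 (95% interval -4.32 to 1.38; limma, adjusted p = 0.429). None of 12 keratinocyte and hair markers reached the filter, 6 of them were listed at 0 in all libraries, and their sum stayed between 0.134 and 0.898 FPKM.

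**Figure D2:**
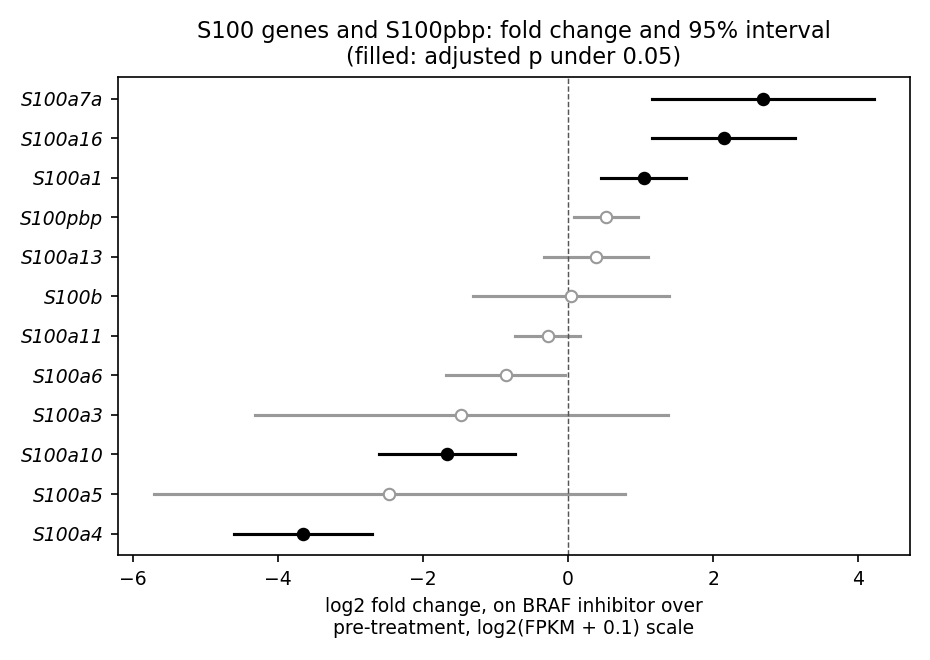
Log2 fold change of the 9 S100 genes and of S100a5, S100a7a and S100pbp, on-BRAFi over pre-treatment, with 95% intervals from limma; filled black points have an adjusted p under 0.05. S100a4 lies at -3.66 and S100a16 at 2.14, and the intervals of S100a3 and S100a5 are the widest.

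In all, 2 of the 9 genes rose, 2 fell and 5 did not pass. Over all tested genes 19.1% passed, 8.76% higher and 10.3% lower. The groups did not overlap for 4 of the 9, with 2 higher and 2 lower on the inhibitor, against 40.4% of all tested genes, 20.9% higher and 19.5% lower. The median log2 fold change of the 9 was -0.28, and that of all genes was -0.01. The directions of the 4 genes that passed did not turn under any alternative. With every library set to an equal total, the median of all genes was 0.53, 2009 genes passed higher and 518 lower, and S100a4, S100a10, S100a1 and S100a16 then had log2 fold changes of -3.11, -1.13, 1.59 and 2.69; all 4 passed in that setting. The median of the 9 turned to 0.27 there.

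The members' shares in their own sum do not change when a library is multiplied by a constant, and they shifted from S100a4 to S100a6 and S100a11. The 9 genes summed to 9979.6, 6104 and 6472 FPKM before treatment and to 2299, 2937 and 1711 FPKM on the inhibitor, which was 1.08%, 0.995% and 1.15% of the total FPKM and then 0.519%, 0.530% and 0.412%. S100a4 made up 49.3%, 46.9% and 52.9% of that sum before treatment and 12.9%, 16.1% and 9.93% on the inhibitor. The share of S100a6 went from 29.0%, 28.6% and 18.4% to 44.0%, 40.7% and 48.3%, and that of S100a11 from 6.87% ± 2.37 to 17.6% ± 2.61 (SD, n = 3). S100a10 kept a similar share, at 16.8% ± 1.96 and 17.4% ± 3.75, in overlapping ranges. The share of S100a1 went from 0.690% ± 0.0371 to 4.63% ± 0.536, and that of S100a16 from 0.0888% ± 0.0221 to 1.27% ± 0.203. The mean shares of S100a13 and S100b went from 0.438% and 0.0144% to 1.74% and 0.0561%. The shares of S100a4, S100a6, S100a11, S100a1, S100a16, S100a13 and S100b did not overlap between the groups. Each had an exact two-sided permutation p of 0.1, the smallest that 3 libraries against 3 can give (0.129 adjusted over the 9). For S100b the margin was almost nil, with 0.01722% in pre-treatment replicate 3 and 0.01726% in on-BRAFi replicate 2. The shares sum to 100% in each library, so a lower share of S100a4 makes the others' higher, and S100a6 and S100a11 did not rise in FPKM.

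**Figure D3:**
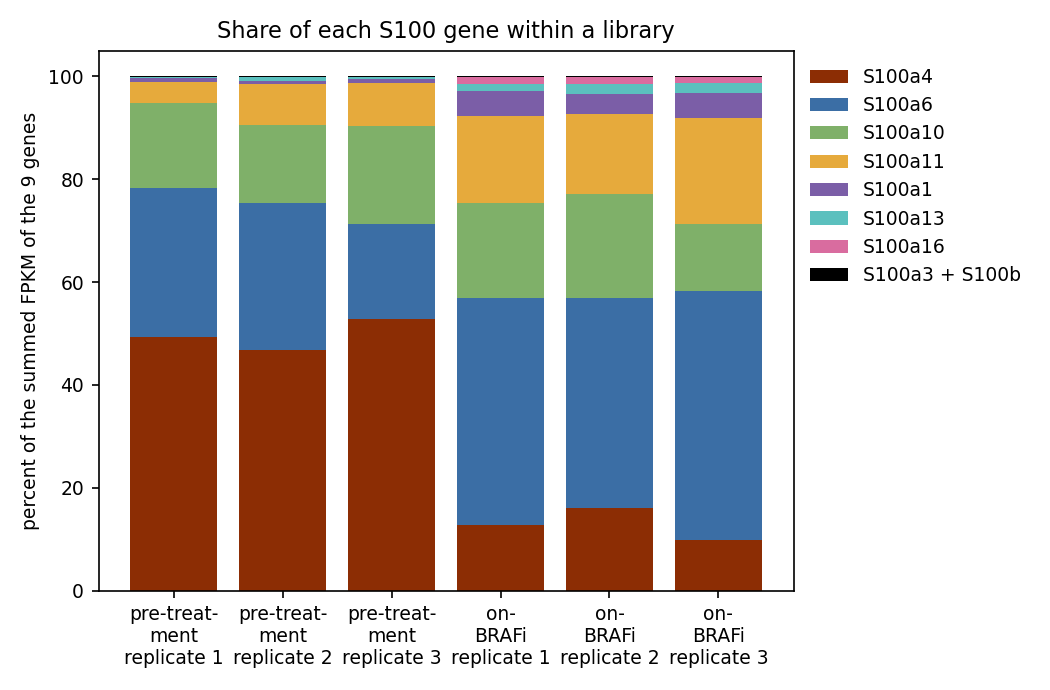
Percent of the summed FPKM of 9 S100 genes that each gene held in each of the 6 libraries, as stacked bars from 0 to 100; S100a3 and S100b are too low to see. S100a4 holds 46.9% to 52.9% in the pre-treatment libraries and 9.93% to 16.1% in the on-BRAFi libraries.

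The ratio of S100a4 to S100a10 was narrow within each group. It was 2.99, 3.10 and 2.79 before treatment and 0.691, 0.794 and 0.755 on the inhibitor, so the drop of S100a4 in each treated library went beyond that of S100a10. The ratio of S100a6 to S100a4 was 0.589, 0.610 and 0.348 before treatment and 3.42, 2.52 and 4.86 on the inhibitor. Both ratios separated the groups (exact two-sided permutation p = 0.1 for each, the smallest possible), and neither changes when a library is multiplied by a constant. Without S100a4 the sum of the other 8 was 3783 ± 1110 FPKM before treatment and 2002 ± 461 FPKM on the inhibitor.

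Of the 9 genes, 8 lie on mouse chromosome 3 and S100b lies on chromosome 10. In the GRCm38 order, S100a1, S100a13, S100a14, S100a16, S100a3, S100a2, S100a4, S100a5, S100a6, S100a7a, S100a8 and S100a9 follow each other, and S100a11 and S100a10 are neighbours at another site of that chromosome. Genes that rose stood on both sides of S100a4: S100a1 and S100a16 on one, and S100a7a, beyond S100a5 and S100a6, on the other. S100a7a reached the filter only through the on-BRAFi libraries, and its call was lost with no filter on low values (limma, adjusted p = 0.0518) and in 4 of the 6 fits that left out a library. S100a11 and its neighbour S100a10 had log2 fold changes of -0.28 and -1.67. Just before the cluster, Snapin and Npr1 rose, at log2 fold changes of 0.79 and 2.80 (limma, adjusted p = 0.0128 and 0.00727), while Chtop and Ilf2 were at -0.12 and -0.48 and did not pass; Npr1 and these others were named for their position. Npr1 reached the filter only through the on-BRAFi libraries, with means of 0.468 FPKM before treatment and 4.05 FPKM on the inhibitor. S100a3 spans the whole of S100a2 in RefSeq, so its few reads could belong to either in unstranded data, although S100a2 was listed at 0 throughout.

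**Figure D4:**
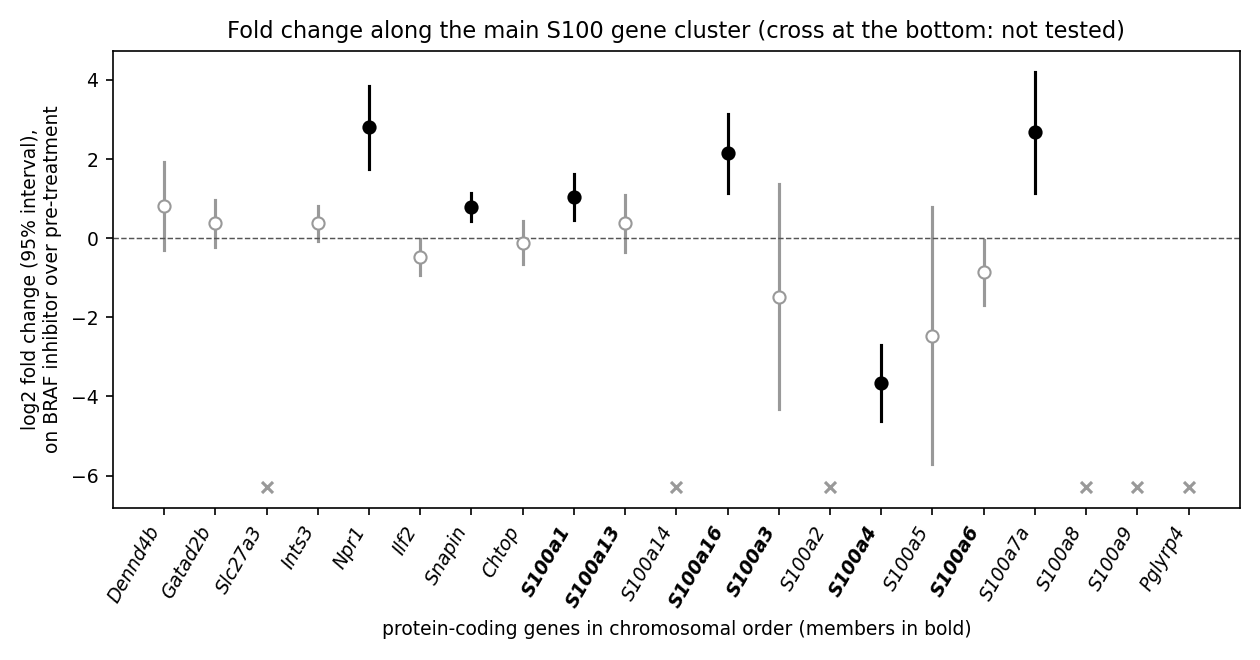
Log2 fold change with 95% interval, on-BRAFi over pre-treatment, for genes in their order along the main S100 cluster; filled black points have an adjusted p under 0.05 and crosses at the bottom were not tested. S100a1, S100a16 and S100a7a lie above 0 and S100a4 lies at -3.66 between them.

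Beyond these 9, the other S100 genes and the related fused-type genes of the skin barrier were low or listed at 0. Of 17 listed, 15 were in the table, 9 were listed at 0 in all 6 libraries and 3 entered the test. S100a7a, the mouse counterpart of the psoriasin group, stood at 1.42, 0.625 and 0.329 FPKM before treatment and at 5.72, 8.62 and 2.35 FPKM on the inhibitor. It rose, with a log2 fold change of 2.68 ± 0.65 (limma, adjusted p = 0.0301), but lost the call with the same 4 omissions as S100a16 (highest adjusted p 0.120, limma) and with no filter on low values (0.0518). S100a5, between S100a4 and S100a6, was at 1.22, 1.28 and 2.12 FPKM before treatment and on the inhibitor at 2.30 FPKM in replicate 2 and listed at 0 in replicates 1 and 3 (limma, adjusted p = 0.252). Without on-BRAFi replicate 2, which leaves only treated libraries at 0, S100a5 passed as lower (limma, adjusted p = 0.0137). S100pbp, which encodes a binding protein of S100P in humans and no S100 protein, had means of 16.8 ± 2.68 before and 23.9 ± 1.39 FPKM on the inhibitor, a difference that did not pass (limma, adjusted p = 0.0953). S100a14 and S100g were at most 0.489 and 0.665 FPKM, and Tchh, for trichohyalin, at most 0.0693 FPKM. The genes listed at 0 were S100a2, S100a8, S100a9, S100z, Flg2, Hrnr, Rptn, Tchhl1 and Crnn.

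Annexins, the calcium- and membrane-binding partners of several S100 proteins, mostly did not pass the test. Of 10 tested, 1 rose, 2 fell and 7 did not pass, where 8.76% of all tested genes rose and 10.3% fell, and the median log2 fold change was -0.11. Anxa1, the partner of S100a11, stood at 2437, 1868 and 2174 FPKM before treatment and at 805, 1089.9 and 794 FPKM on the inhibitor. It fell 2.42-fold (limma, adjusted p = 0.00905), with no overlap between groups, but lost the call when on-BRAFi replicate 1 or 3 was left out (highest adjusted p 0.0691, limma) and after quantile normalization (0.475). Anxa8, a low annexin, fell from 3.73 ± 2.07 to 0.313 ± 0.0461 FPKM (limma, adjusted p = 0.0112), and it reached the filter only through the pre-treatment libraries. Anxa6, which has a doubled annexin core, rose 2.24-fold, from 25.1 ± 6.62 to 56.1 ± 14.2 FPKM (limma, adjusted p = 0.0292), and each omission of a library ended the call (highest adjusted p 0.0978).

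Anxa2, which forms the complex with S100a10, was at 397, 332 and 294 FPKM before treatment and at 210.1, 265 and 203 FPKM on the inhibitor. Its groups were apart, yet the log2 fold change of -0.59 ± 0.19 did not pass (limma, adjusted p = 0.0771). The ratio of S100a10 to Anxa2 was 4.14, 2.77 and 4.18 before treatment and 2.04, 2.26 and 1.11 on the inhibitor, lower in all 3 treated libraries (exact two-sided permutation p = 0.1, the smallest possible). Anxa3, Anxa4, Anxa5, Anxa7, Anxa9 and Anxa11 had log2 fold changes between -0.31 and 0.77 and overlapping groups.

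Of 18 tested genes for other partners and receptors, 2 rose, 5 fell and 11 did not pass, where 8.76% of all tested genes rose and 10.3% fell. Their median log2 fold change was -0.32. With every library set to an equal total, 3 rose and 1 fell. Ager, the gene of the receptor RAGE, was at 1.68, 1.57 and 0.951 FPKM before treatment and at 6.26, 5.86 and 6.42 FPKM on the inhibitor. It rose 4.29-fold, and the call held without any 1 of the 6 libraries (limma, adjusted p = 0.00469 with all). Dlc1, a GTPase-activating protein that binds S100a10, rose from 10.4 ± 0.116 to 20.8 ± 4.70 FPKM (limma, adjusted p = 0.0192), with p up to 0.0615 when a library was left out.

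Cacybp, the partner of S100a6, fell from 177, 100.04 and 90.2 FPKM to 41.3, 26.3 and 44.2 FPKM, a 3.21-fold change (limma, adjusted p = 0.0139), and lost the call when on-BRAFi replicate 1 or 2 was left out (highest adjusted p 0.0567, limma) and with equal totals (0.0511). Sugt1, a co-chaperone that S100a6 also binds, fell 2.17-fold (limma, adjusted p = 0.00913) but not with equal totals (0.228). Plaur, the receptor that holds urokinase at the cell surface, fell from 19.5, 7.24 and 15.8 FPKM to 1.14, 1.35 and 1.87 FPKM, 8.64-fold (limma, adjusted p = 0.00378). Trp53, the gene of p53, fell 1.52-fold and Ppfibp1, the gene of the S100a4 partner liprin beta 1, fell 1.49-fold (limma, adjusted p = 0.0344 and 0.0479); each kept its call in 1 of the 6 fits that left out a library and lost it with equal totals, at -0.06 and -0.03. Myh9, the non-muscle myosin bound by S100a4, Ahnak, the scaffold bound by S100a10 with annexin A2, and Iqgap1, a scaffold bound by S100b, were at 64.5 ± 2.95, 380 ± 17.7 and 45.1 ± 13.2 FPKM on the inhibitor; their log2 fold changes, -0.33, 0.10 and -0.73, did not pass.

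**Figure D5:**
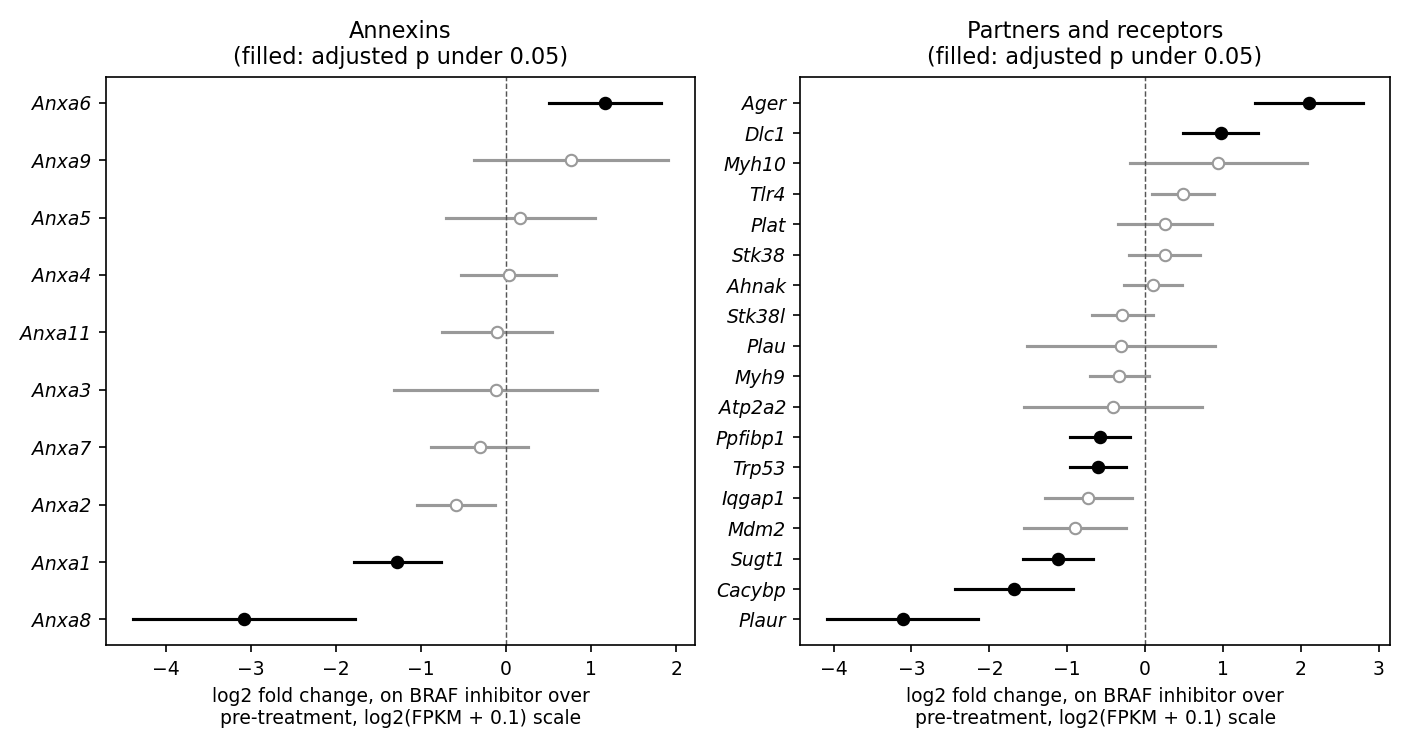
Log2 fold change with 95% interval, on-BRAFi over pre-treatment, for 10 annexin genes and 18 genes of S100 partners and receptors; filled black points have an adjusted p under 0.05. Ager lies at 2.10 and Plaur at -3.11, while Anxa2 lies at -0.59 with an open symbol.

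Among other EF-hand proteins, 20 genes were tested, of which 3 rose, 1 fell and 16 did not pass, a share called near the 19.1% of all tested genes, with a median log2 fold change of -0.01. With every library set to an equal total, 4 rose and none fell. Sparc, a matrix protein with an EF-hand pair, rose from 382 ± 25.3 to 1328 ± 94.6 FPKM (limma, adjusted p = 0.00138), and Rcn3, of the secretory pathway, rose 3.03-fold (limma, adjusted p = 0.00370); both calls held without any 1 of the 6 libraries. Sdf4, another secretory-pathway protein, rose 1.76-fold (limma, adjusted p = 0.0338), but each omission of a library ended the call (highest adjusted p 0.0890). Calm2, one of the calmodulin genes, fell from 812 ± 106 to 458 ± 67.1 FPKM (limma, adjusted p = 0.0274), and it kept its call in only 1 of the 6 fits without a library. Calu and Sri, among the most abundant of those that did not pass, had log2 fold changes of 0.35 and 0.10.

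For each of the 9, the genes with the nearest pattern over the 6 libraries were found by the Euclidean distance between centred log2(FPKM + 0.1) values among 10773 tested genes. Nearest to S100a4 were Hist1h2bm, a histone H2B gene, Kif23, a kinesin of cell division, and Ect2, an exchange factor of cell division, at distances of 0.547, 0.614 and 0.650. Kif23 fell from 15.1 to 0.943 FPKM on average. Nearest to S100a10 were Eda2r, a receptor of the TNF receptor family, Ccl7, a chemokine, and Acat3, at 0.357, 0.360 and 0.481. Nearest to S100a16 were Meg3, an imprinted non-coding RNA, Kdr, the main VEGF receptor of endothelium, and Nova1, an RNA-binding protein, at 0.533, 0.569 and 0.633; Kdr rose from 1.96 to 7.20 FPKM on average. Nearest to S100a1 were Coro7, Lysmd2 and Trp53inp2, from 0.266 to 0.298, and nearest to S100a6 were Prmt1, Bin1 and Hook2, from 0.254 to 0.302. The closest of all were those of S100a11, which were Rif1, Cyth3 and Smndc1, from 0.102 to 0.173. Lpin3, Exoc6 and Hmgxb4 were nearest to S100a13, from 0.335 to 0.357, and Zfp280d, Vwa9 and Sgtb to S100b, from 0.276 to 0.344. The genes nearest to S100a3 lay furthest off, with Cfhr2, Phf11a and Phf11c at 1.38 to 1.67. These distances describe 6 libraries in 2 groups and carry no test. The values were centred but not scaled, so a distance also depends on how much the member itself varied. Distances of different members therefore do not rank likeness of pattern.

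Markers of other cells that the sort could leave were measured beside these values, where 8.76% of all tested genes rose and 10.3% fell. Pericyte and smooth muscle markers rose in 3 and fell in 1 of 5 tested cases (Rgs5 rose, Cspg4 fell and Acta2 did not pass), with a summed level of 22.0 to 34.7 FPKM before treatment and 50.6 to 95.1 FPKM on the inhibitor. Notch3 and Tagln also rose but reached the filter only through the on-BRAFi libraries, with means of 0.532 and 0.854 FPKM before treatment. Both tested adipocyte markers, Fabp4 and Lpl, rose, though Lpl, at a mean of 0.552 FPKM before treatment, reached the filter only through the on-BRAFi libraries. Fabp4 was highest in on-BRAFi replicate 2, at 157 FPKM. Each of the 9 S100 genes but S100a3 and S100b also had its highest treated value in that library. The share of all tested genes that peaked there was not counted. On-BRAFi replicate 2 also had the highest treated total, 554684 FPKM against 442915 and 414834 FPKM in replicates 1 and 3. Short RNAs held 40.5% of its total, against 29.0% and 26.5%. Adipoq, which defines adipocytes, was at most 0.323 FPKM. Of 5 tested Schwann cell markers, Pmp22 rose and Cdh19 did not pass, and the list's sum went from 35.9 to 42.4 FPKM to 100.1 to 164 FPKM. Of 3 tested melanocyte markers, Mitf rose and Tyr and Kit did not pass, and the list's sum went from 9.93 to 13.7 FPKM to 29.1 to 30.9 FPKM. None of 4 tested leukocyte markers, Lyz2, Cd68 and C1qa among them, passed in limma (0 at an unadjusted p under 0.05), and that list summed to 26.4 to 32.7 FPKM before treatment and to 18.8 to 41.2 FPKM on the inhibitor. The part of these cells in the S100 values was not tested.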

How the data were processed

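RNA of CD45-negative cells from 6 tumours was sequenced after QIAGEN RNeasy micro extraction and unstranded poly(A) TruSeq library preparation, per the labels, which describe the reads as both single-end and paired-end. The authors deposited 1 FPKM table, with a row for each gene symbol. Tools named in the submitters' processing notes are TopHat2, TopHat, Cuffnorm and Cuffdiff, with mm9 as the build; neither the annotation nor the scaling of libraries is stated there. Depth is unknown, so no counting intervals are given.

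The 12075 genes averaging 1 FPKM or more were tested as log2(FPKM + 0.1) with limma 3.58.1 in R 4.3.3 (lmFit, eBayes with trend; two-sided; Benjamini-Hochberg over all genes tested). Fold changes on this scale understate the change of low genes. With 3 libraries a group, single ratios and shares were tested by exact permutation. The fit was tested on simulated data.

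The members and lists were chosen with earlier results of these data known. Named by rule were the 9 genes, other S100 genes, tested annexins, listed partners and EF-hand genes past the threshold with the 3 most abundant of the rest, the most abundant markers of each cell type, and nearest patterns. Neighbours of the S100 cluster and markers near 0 (Sox10 and Adipoq) were named after their values were seen. Some genes picked by this rule are left out here. Other pseudocounts, filters, scalings, limma settings, a replicate block and leaving out each library were tried. Those that leave out a library kept the same genes. Promoter sequences are RefSeq's (GRCm38.p6).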

Additional observations from a re-analysis of the deposited data

How the results depend on the processing

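S100a4 kept its direction and its call under all 17 alternatives, with log2 fold changes from -4.02 to -2.87. S100a1 and S100a16 kept their direction, and S100a1 missed the threshold without a trend in limma (adjusted p = 0.0514). S100a10 missed it with no filter on low values (limma, adjusted p = 0.0527) and with equal totals after short RNAs were removed (0.0503). Signs turned for S100a6, at 0.29 after quantile normalization, for S100a11, at 0.27 with equal totals, 0.32 with equal totals and no short RNAs and 0.30 after quantile normalization, and for S100b, at -0.19 after quantile normalization and from -0.23 to 0.49 when a library was left out. Ppfibp1 turned to 0.019 with equal totals and no short RNAs.

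Over all genes, 2307 passed, 1058 higher and 1249 lower. Equal totals gave 2009 higher and 518 lower, and removing short RNAs as well gave 4481, 3799 higher and 682 lower. Leaving out a library gave 1112 to 1552 (483 to 767 higher, 629 to 887 lower). Between 1 and 3 S100 genes then passed, 1 to 2 annexins, 3 to 6 partners, 2 to 3 EF-hand genes, 0 to 1 of the list of other S100 genes and 14 to 19 markers, against 4, 3, 7, 4, 1 and 22 with all libraries. Equal totals gave 4 partner calls, and without short RNAs 9 partner calls, 8 EF-hand calls and 2 calls in the list of other S100 genes (S100a7a and S100pbp, which is no S100 gene). With no filter, 0 genes of that list passed in limma (2 at an unadjusted p under 0.05). With a mean of at least 5 FPKM, 0 passed, but S100pbp was the only one tested (1 at an unadjusted p under 0.05).

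Same-numbered libraries did not deviate together (correlations of -0.030, 0.012 and -0.090), and libraries of unlike number ranged from -0.087 to 0.115. With so few libraries these values cannot show whether the numbers pair the tumours. With tumour number as a replicate block, 1237 genes passed (500 higher, 737 lower), among them 2 of the S100 genes (S100a1 and S100a10 missed at adjusted p = 0.0567 and 0.0597), 4 partners and 2 EF-hand genes. The cause of these changes was not tested. Depth is unknown, and S100a3, S100b and S100a5 lay closest to the filter on low values.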
